A study of Mus musculus with 3 samples.

Results

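The C-type lectin receptors described here are 9 genes chosen by name: Clec4e, which encodes Mincle, with Clec4d, Clec4n, Clec7a, Clec10a, Clec12a, Clec9a, Clec4a2 and Clec5a. They were found by symbol in the 3 count matrices, not by their values, and 8 of the 9 were measured, of 27998 genes in all. Clec7a was not analysed here. The cells were sorted from mouse suprarenal aorta as CD45+CD31- and CD45-CD31+ cells, and each library came from aortas pooled within 1 group. The control library held 5 C57Bl/6 mice on chow. The room air library held 5 Apoe-/- mice fed a Western, high fat diet for 16 weeks. The aneurysm library held 4 Apoe-/- mice on that diet that breathed cigarette smoke for 16 weeks and had a measurable aortic dilatation. Loss of Apoe and the diet therefore came together in the first comparison, and smoke and selection for dilatation came together in the second. With 1 library a group no difference has a replicate check, so no test was made, and intervals cover counting error only.

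C-type lectin receptors are surface proteins with which myeloid cells sense sugars, glycolipids and material from dead cells. Mincle and its neighbours Clec4d (MCL) and Clec4n (Dectin-2) signal through the Fc receptor gamma chain and the kinase Syk, and the Card9, Bcl10 and Malt1 complex then carries the signal to NF-kB. Clec5a signals through Dap12 and Dap10. Clec12a and Clec4a2 (DCIR) carry inhibitory motifs that recruit phosphatases, Clec10a binds galactose-type sugars and is taken up with its cargo, and Clec9a detects actin exposed on dying cells. Mincle binds a mycobacterial glycolipid and SAP130 released by dead cells, and its gene is inducible in macrophages, with C/EBP-beta as a known regulator. MCL and Mincle can pair at the cell surface.

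Clec4n, Clec4d and Clec4e lie side by side on mouse chromosome 6 (GRCm38, the build called mm10). Clec4n (ENSMUSG00000023349) spans 123229843 to 123247021 and Clec4d (ENSMUSG00000030144) spans 123262111 to 123275265, both on the forward strand. Clec4e (ENSMUSG00000030142) spans 123281789 to 123289870 on the reverse strand, 6.524 kb beyond Clec4d. Clec4a2 lies near them, ending 85.844 kb before Clec4n. Clec12a, Clec9a and Clec5a lie farther away on chromosome 6 and Clec10a on chromosome 11. All 8 are annotated as protein-coding. The annotation puts the start of Clec9a 0.473 kb inside Clec1b on the same strand, so reads in that overlap cannot be given to 1 of the genes by strand.

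The windows of 250 bases before the RefSeq start (GRCm38.p6) are shown for Clec4e and Clec4d, adjacent genes whose macrophage levels had the same order of libraries, and for the inhibitory receptor Clec12a, which was not called there. Windows were found for 6 of the 8 measured genes. Capitals mark matches to the words searched on both strands, which were TTGCNNAA (C/EBP core), GAGGAA (PU.1 core), TGANTCA (AP-1), GGGA and TTCC with any 2 bases between them (NF-kB), and GAAA and GAAA with any 2 bases between them (interferon response). Each line runs 5′ to 3′ along the strand of its gene.
Clec4e: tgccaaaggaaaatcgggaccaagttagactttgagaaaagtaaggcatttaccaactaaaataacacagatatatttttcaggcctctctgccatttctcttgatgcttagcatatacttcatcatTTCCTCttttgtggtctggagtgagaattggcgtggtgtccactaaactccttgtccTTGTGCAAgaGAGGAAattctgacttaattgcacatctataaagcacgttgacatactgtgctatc
Clec4d: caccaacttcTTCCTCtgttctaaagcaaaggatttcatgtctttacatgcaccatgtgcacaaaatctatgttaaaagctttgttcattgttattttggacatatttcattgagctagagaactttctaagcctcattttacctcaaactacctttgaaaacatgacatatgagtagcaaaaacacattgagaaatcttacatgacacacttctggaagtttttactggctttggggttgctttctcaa
Clec12a: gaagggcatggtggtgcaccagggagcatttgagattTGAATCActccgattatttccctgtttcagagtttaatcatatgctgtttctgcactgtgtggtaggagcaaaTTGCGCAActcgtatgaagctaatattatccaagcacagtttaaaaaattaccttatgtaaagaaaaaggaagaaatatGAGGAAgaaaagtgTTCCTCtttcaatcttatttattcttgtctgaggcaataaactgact
The Clec4e window (chr6:123289872-123290121, reverse strand) held 1 C/EBP core word, TTGTGCAA, starting 66 bases before the start, and PU.1 core words at 123 and 56 bases. The Clec4d window (chr6:123261857-123262106, forward strand) held 1 PU.1 core word at 240 bases and no C/EBP core word. The Clec12a window (chr6:129349994-129350243, forward strand) held a C/EBP core word, a PU.1 core word at 61 and another at 47 bases, and an AP-1 word, TGAATCA. The Clec9a and Clec4a2 windows held none of the 5 words, and the Clec5a window held PU.1 words at 81 and 55 bases. A C/EBP core word was present in 9.57% of 32817 windows of this length and a PU.1 core word in 23.3%. AP-1 words were present in 6.75%, NF-kB words in 1.21% and interferon response words in 2.97%. None of the 6 windows held an NF-kB or interferon response word, which says only that these letters are not in them.

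After filtering, 773 control, 1821 room air and 2775 aneurysm cells were kept, with medians of 2681, 3884 and 4476 unique molecular identifiers (UMIs, which count molecules) per listed barcode and stated viabilities of 73%, 91% and 94%. Apoe, the deleted gene, had 10532 counts per 1000000 UMIs (CPM) in control, 17.1 in room air and 13.03 with aneurysm. Ptprc, which encodes CD45, had a UMI in 49.5%, 74.3% and 75.6% of kept cells. Room air and aneurysm shared 5 barcodes, control and room air 4, and control and aneurysm 0. The cells formed 23 clusters. Macrophage-like cells were cluster 2 (Lyve1, Cd163, Pf4, Folr2), cluster 5 (Ccl8, Cd209f, Folr2, Cbr2), cluster 18 (Ccl12, Ifit3, Adgre1) and cluster 19 (Spp1, Gpnmb, Mmp12). Spp1 and Gpnmb are known from lipid-associated macrophages. Cluster 2 held 251 of the 272 macrophage-like cells of control, 14 of the 532 of room air and 9 of the 649 of aneurysm. Room air against control therefore compared different macrophage clusters, and a change within a cluster cannot be told apart from a change of cluster.

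The receptors differed in the cell types where they were highest. None of them was a marker used to name a class. Clec9a was highest in type 1 conventional dendritic cells (cDC1-like), the cells that cross-present antigen from dead cells, and Clec10a in type 2 conventional dendritic cells (cDC2-like) and in the Cd209f and Lyve1 macrophage clusters. Clec4e was highest in neutrophil-like and monocyte-like cells, Clec4d in neutrophil-like cells, Clec4n in macrophage-like cells and Clec5a in neutrophil-like and macrophage-like cells. Clec4a2 was highest in classical monocyte-like, neutrophil-like and macrophage-like cells. Clec12a was highest in pDC-like cells, plasmacytoid dendritic cells that make interferon, and was spread over the other myeloid classes. Values are compared within a gene and across classes, since levels of different genes are not corrected for length.

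**Figure D1:**
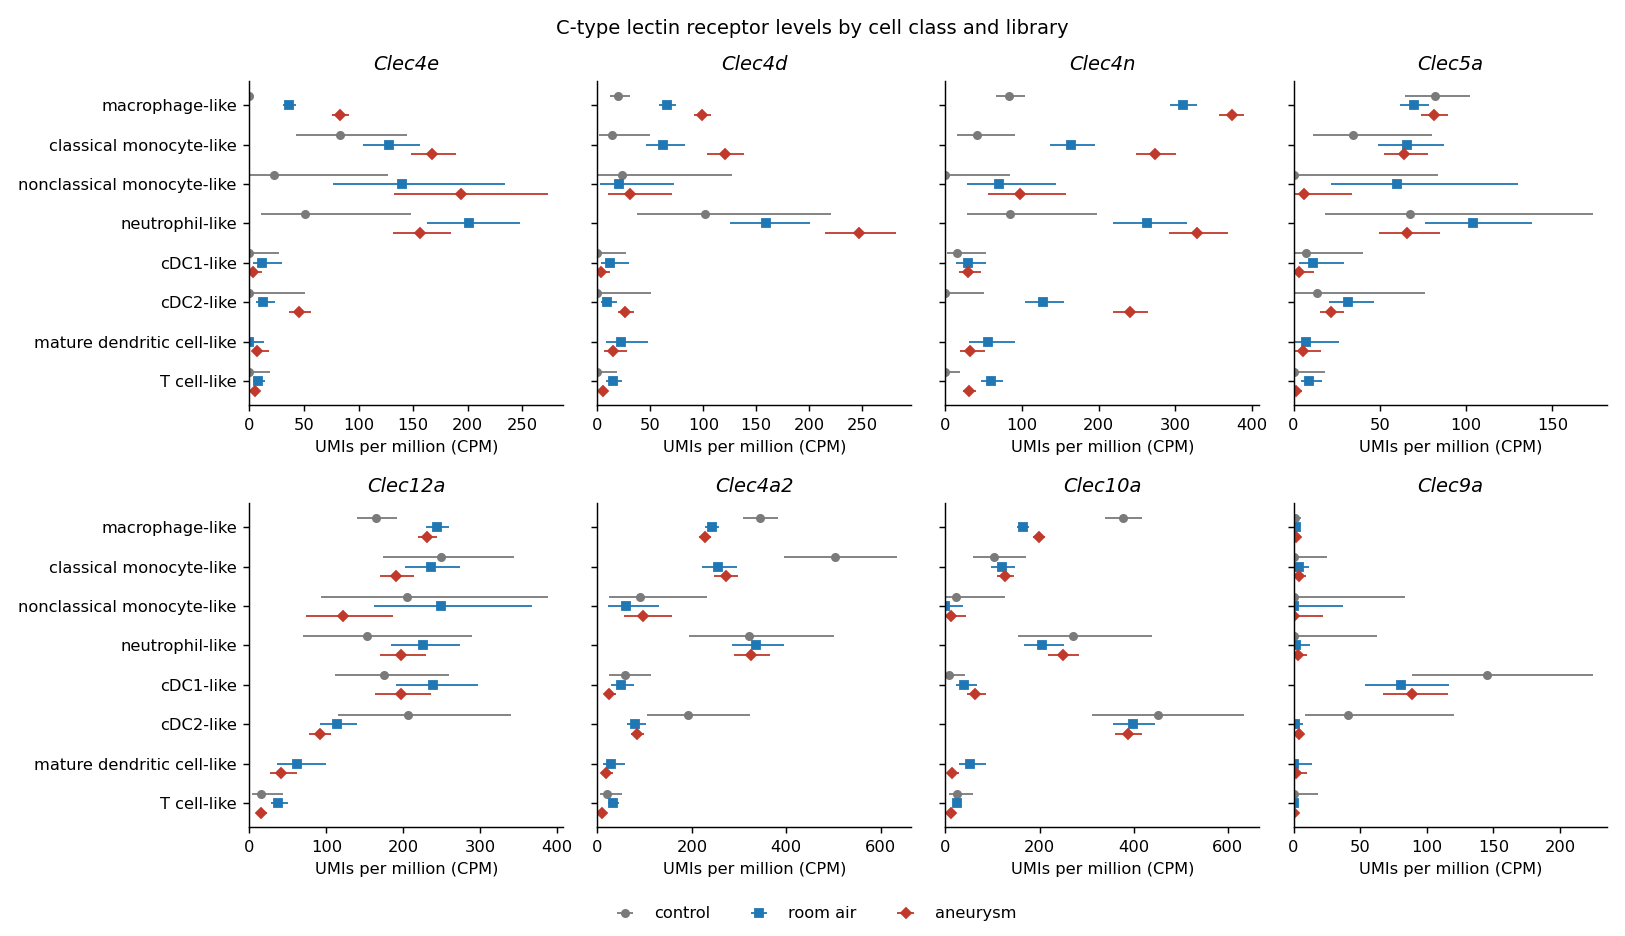
Level of each receptor as UMIs per class total (CPM) (horizontal axis, 1 scale per gene) in 8 cell classes of the control, room air and aneurysm libraries. Points are pooled levels of 1 library, shown where it held at least 10 cells, and bars are exact Poisson 95% intervals of counting error. Clec9a stood out in cDC1-like cells, and Clec10a in cDC2-like cells of room air and aneurysm but less clearly in control.

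Mincle was not detected in the macrophage-like cells of control and was present in those of both Apoe-/- libraries. Clec4e had 0 UMIs in the 272 macrophage-like cells of control, a level that allows up to 3.11 CPM at 3 counts. It had 146 UMIs in room air (36.7 CPM, 95% interval 31.0 to 43.1) and 451 with aneurysm (83.1 CPM, 75.6 to 91.1). The room air level was 11.8-fold above this control floor, and 2.73-fold with every cell thinned to 1000 UMIs. Both ratios leave out the counting error of the room air UMIs, so they are not lower bounds. The aneurysm level was 2.27-fold above room air (1.88 to 2.75). T cell-like cells, which should lack the gene and so show free RNA, had 0 CPM in control, 7.54 in room air and 5.12 with aneurysm. Control was the shallowest library, and its 41 classical monocyte-like cells held 12 Clec4e UMIs. The unnamed cluster 6, with 61 control cells, scored highest for macrophage markers but is not counted as macrophage-like here. Its control cells did hold Clec4e, at a low level on very few UMIs that is given under the other observations.

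Its partner Clec4d and the fungal mannan receptor Clec4n showed the same order of libraries. Clec4d was at 19.7 CPM in control, 66.0 in room air and 98.9 with aneurysm, a ratio of 3.35 (2.10 to 5.65) and then of 1.498 (1.29 to 1.74). The second ratio was just under the 1.5-fold limit used for a call, and several other settings put it just over. Clec4n was at 83.0 CPM in control, 309.8 in room air and 373.5 with aneurysm. It was 3.73-fold higher in room air than in control (2.98 to 4.74) and 1.21-fold higher in aneurysm than in room air (1.12 to 1.29). For Clec4e, Clec4d and Clec4n the counting intervals of the libraries did not overlap.

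Clec10a went the other way in the first comparison. It was at 376.6 CPM in control macrophages, 164.7 in room air and 198.8 with aneurysm, so that room air was 2.29-fold lower than control and aneurysm 1.21-fold above room air (1.09 to 1.33). Clec12a was at 163.9, 244.0 and 231.2 CPM, and its ratio of room air to control, 1.49 (1.26 to 1.77), was just short of the limit. Clec4a2 was at 343.4, 242.3 and 227.2 CPM and Clec5a at 82.0, 69.8 and 81.4 CPM. The Clec5a intervals of the 3 libraries overlapped. Clec9a had 1, 7 and 9 UMIs in macrophage-like cells, too few to compare.

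With at least 1.5-fold and 20 UMIs over both libraries as the limits for a call, 3 of 7 receptors were called higher in room air than control (Clec4e, Clec4d, Clec4n), and 1 was called lower (Clec10a). With cells thinned to 1000 UMIs Clec4e was not among those called, since it fell under the limit of 20 UMIs, not under the fold limit. Of all genes tested there, 25.6% were called higher and 14.3% lower, so calls were common among all genes of these cell pools, and 3 of 7 is not far above the background. Between aneurysm and room air 1 of 7 was called higher (Clec4e) and 0 lower, where 3.92% of all genes were called higher and 6.89% lower. The median log2 ratio was 0.57 over the 7 receptors and 0.13 over all genes in the first comparison, and 0.27 against -0.03 in the second.

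**Figure D2:**
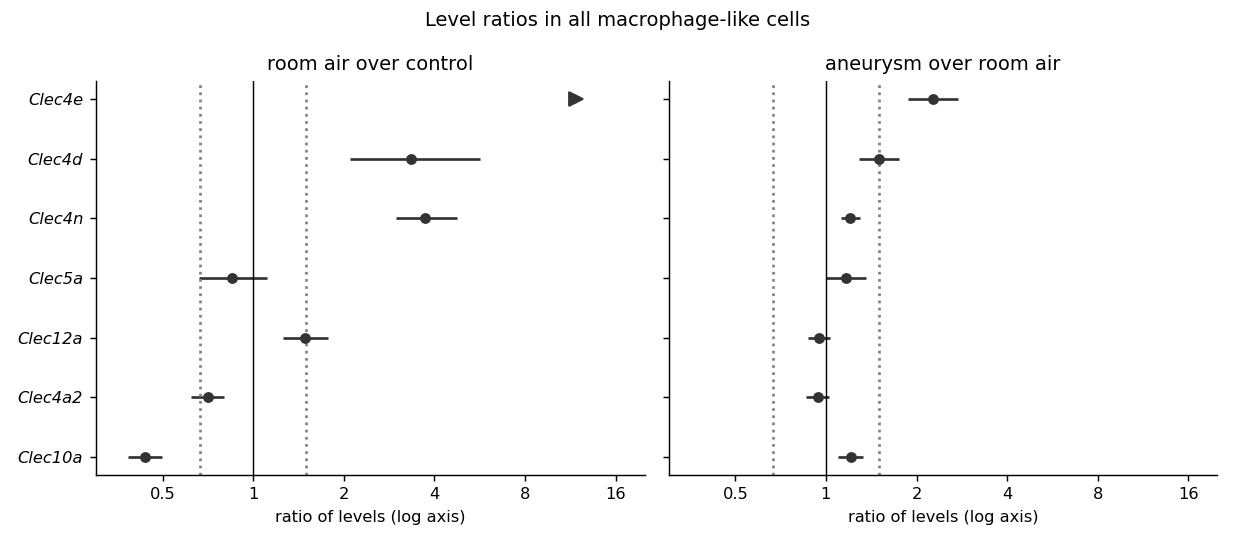
Ratio of levels in all macrophage-like cells for 7 receptors, room air over control (left) and aneurysm over room air (right), on a log axis. Bars are exact conditional binomial 95% intervals of counting error, and dotted lines mark 1.5-fold in either direction. The triangle is the ratio to a floor of 3 counts, since Clec4e had 0 UMIs in control. Between aneurysm and room air Clec4e stood past the upper line and the others between the lines.

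The higher Mincle level of the aneurysm library was located in cluster 19, the Spp1 and Gpnmb macrophages. There Clec4e was at 54.5 CPM in room air (44.5 to 66.1) and 142.8 with aneurysm (129.3 to 157.4), a ratio of 2.62 (2.11 to 3.28). In cluster 5 it was at 18.5 and 17.1 CPM, and in cluster 18 at 23.1 and 16.8 CPM. The ratios there, 0.920 (0.483 to 1.81) and 0.727 (0.352 to 1.44), had intervals that include 1. In these clusters 0 of 7 receptors were called, beside 8.89% of all genes higher and 9.23% lower in cluster 5, and 6.83% higher and 11.5% lower in cluster 18. Without cluster 19 the ratio over the macrophages was 0.814, and 0 of the 7 receptors were called in either direction. Cluster 19 made up 39.1% of macrophage-like cells in room air and 50.1% in aneurysm. Whether the clusters differ in their response was not tested.

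Clec4d followed Clec4e in location. In cluster 19 it was at 105.3 CPM in room air and 161.7 with aneurysm (1.54-fold, 1.30 to 1.82), beside 29.0 and 26.5 CPM in cluster 5 and 32.5 and 33.5 CPM in cluster 18. Clec4n was at 437.7 and 516.7 CPM in cluster 19, more than in clusters 5 and 18 of the same libraries, which held 162.5 to 236.0 CPM. In control the 251 cells of cluster 2 had Clec4n at 76.7 CPM (59.5 to 97.4), whereas the 14 room air cells of that cluster had 244.2 CPM (136.7 to 402.8). The room air value rests on 15 UMIs, 6 of them in 1 cell, and was 155.2 CPM without that cell. T cell-like cells had Clec4n at 0 CPM in control and 59.4 in room air, and the part of free RNA was not tested. Cluster 2 is the only cluster in which control and an Apoe-/- library each held at least 10 macrophage-like cells. In it Clec4e had 0 UMIs in both libraries, which in the 14 cells allows a level up to 48.8 CPM at 3 counts.

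Clec10a had the opposite distribution among macrophages. It was at 405.4 CPM in cluster 2 of control and at 368.5 and 468.8 CPM in cluster 5 of room air and aneurysm. Cluster 18 of these libraries held 150.5 and 162.9 CPM and cluster 19 held 66.2 and 41.7. In the 14 room air cells of cluster 2 Clec10a was at 602.4 CPM on 37 UMIs, and at 467.2 without the highest cell. Within that cluster it was thus not lower in room air than in control, unlike over all macrophage-like cells. Among clusters 5, 18 and 19, Clec4a2 and Clec12a were highest in cluster 18, where Clec4a2 was at 402.7 and 462.5 CPM and Clec12a at 348.0 and 377.4 CPM in room air and aneurysm. The 14 room air cells of cluster 2 held both genes at 423.3 CPM, on 26 UMIs each (276.5 to 620.3). Clec4a2 was lowest in cluster 19, at 110.6 and 133.7 CPM, while Clec12a there was at 186.3 and 206.5 CPM. Among clusters 5, 18 and 19, cluster 19 was thus highest for the activating Clec4e, Clec4d and Clec4n and lowest for Clec10a and the inhibitory Clec4a2. Other receptors of these kinds did not follow in both libraries. The inhibitory Clec12a was lowest in cluster 5 of aneurysm, at 201.7 CPM. The activating Clec5a was not highest in cluster 19 of room air. In cluster 19, 8.30% of all genes were called lower in aneurysm than in room air and 6.29% higher, and the receptors called were Clec4e and Clec4d higher and Clec10a lower. That Clec10a call rests on 1 room air cell with 53 of the 125 UMIs, without which the levels were 38.4 and 37.9 CPM.

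**Figure D3:**
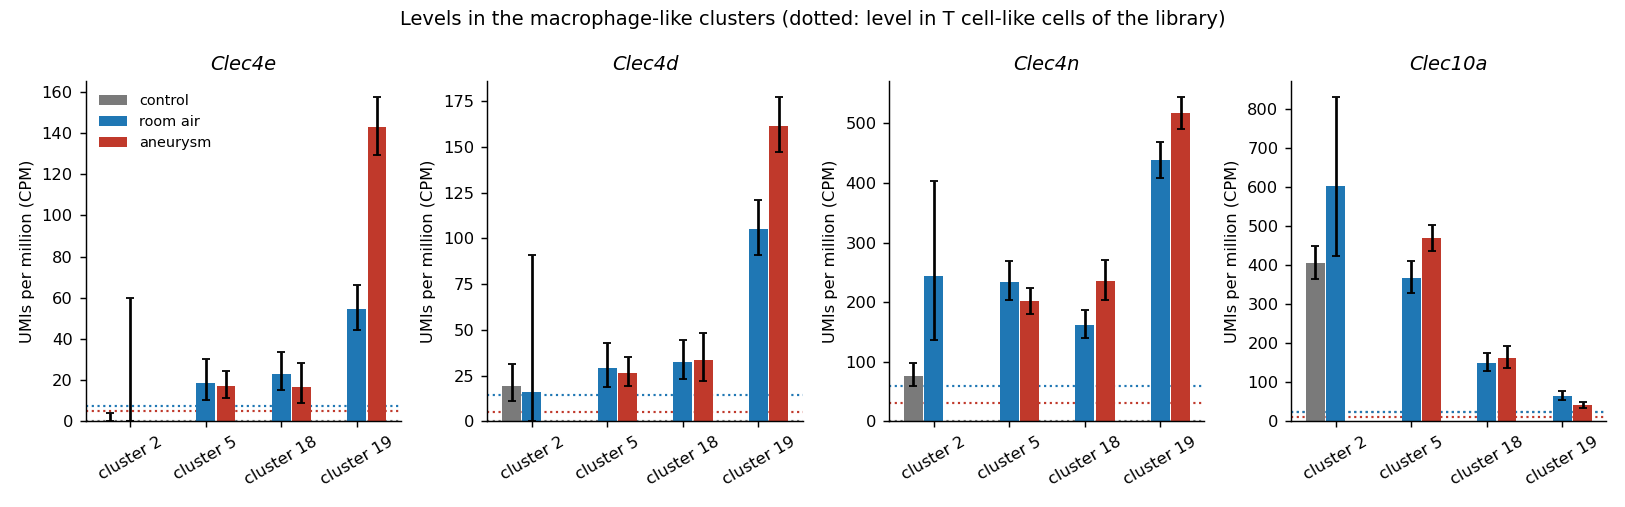
Levels of Clec4e, Clec4d, Clec4n and Clec10a in CPM (vertical axis) in the 4 macrophage-like clusters, coloured by library, for libraries with at least 10 cells of a cluster. Error bars are exact Poisson 95% intervals and dotted lines the level in T cell-like cells of each library; the first 3 genes were highest in cluster 19 and Clec10a was lowest there.

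Within cluster 19 both libraries had a similar share of cells with Mincle at full depth, and aneurysm had more cells with many UMIs. A Clec4e UMI was found in 51 of 208 room air cells (24.5%) and in 89 of 325 aneurysm cells (27.4%), at median depths of 7960 and 7800 UMIs. T cell-like cells had one in 2.03% and 1.51%, at median depths of 2493 and 2715. After every cell was thinned to 1000 UMIs, the shares in cluster 19 were 4.33% (2.00 to 8.05) and 12.3% (8.94 to 16.4). Cells with 1 UMI numbered 33 and 35, and those with 2 to 4 numbered 15 and 29. Cells with 5 or more UMIs numbered 3 in room air (1.44%, exact binomial 95% interval 0.298 to 4.16) and 25 with aneurysm (7.69%, 5.04 to 11.1). These 25 cells held 295 of the 408 Clec4e UMIs of aneurysm cluster 19, or 72.3%. The mean over cells with any UMI was 2.02 in room air and 4.58 with aneurysm, and the highest cell held 15 and 28. Leaving out the highest cell of each library gave a ratio of 2.85 in place of 2.62. In clusters 5 and 18 no cell of either library held 5 or more. The limit of 5 UMIs was chosen after the values were seen, and UMIs gathered in few cells make the Poisson intervals above too narrow for differences between cells.

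**Figure D4:**
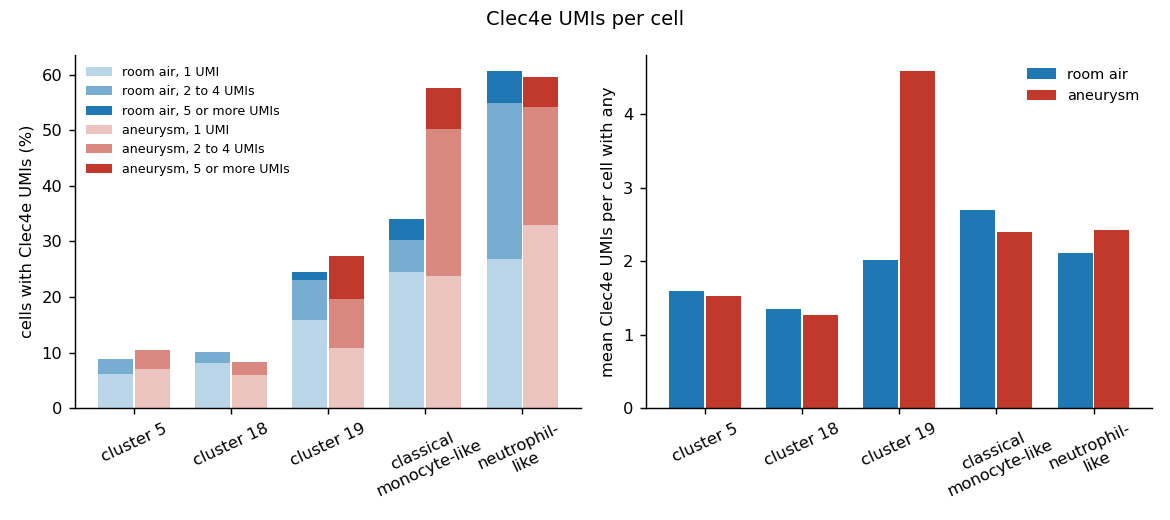
Left, share of cells (percent) with 1, 2 to 4 and 5 or more Clec4e UMIs, stacked in light to dark shades, in 3 macrophage-like clusters, classical monocyte-like and neutrophil-like cells of room air and aneurysm. Right, mean number of Clec4e UMIs in cells with at least 1; in cluster 19 the stacked shares were 24.5% and 27.4% while the means were 2.02 and 4.58.

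Cells of cluster 19 with a Clec4e UMI also held more Clec4n and, in aneurysm, more Clec4d and Clec5a. In aneurysm, Clec4n was at 1060 CPM in the 89 cells with Clec4e and 314.6 in the 236 cells without (3.37-fold, 3.04 to 3.74). Clec4d was at 277.6 and 118.6 CPM (2.34-fold, 1.94 to 2.82) and Clec5a at 154.9 and 79.2 CPM (1.95-fold, 1.53 to 2.49). Clec12a was at 169.1 and 220.5 CPM, Clec10a at 36.2 and 43.7 and Clec4a2 at 140.7 and 131.1, none past 1.5-fold. So 3 of 6 other receptors were called higher in these cells, the activating ones, beside 9.23% of all genes higher and 12.3% lower. In room air Clec4n was at 696.6 and 325.1 CPM (2.14-fold, 1.86 to 2.46) and was the 1 receptor of 6 called, beside 8.00% of all genes higher and 10.8% lower. Clec4d there was at 125.7 and 96.5 CPM and Clec5a at 62.8 and 79.0. Whether the 2 libraries differ in this respect was not tested.

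Many cytokine genes known to be induced through these receptors were also higher in cells with a Clec4e UMI, though not all of them in both libraries. In aneurysm cluster 19, 11 of 13 tested genes of the list of induced cytokines and feedback genes were called higher in such cells and 1 lower (Nfkbiz), beside 9.23% of all genes higher and 12.3% lower. The median ratio was 1.82, beside 0.975 over all genes. The monocyte chemokine Ccl2 was at 1637 CPM with and 562.9 without (2.91-fold, 2.68 to 3.15). The neutrophil chemokines Cxcl2 and Cxcl3 were 2.21-fold (1.94 to 2.53) and 4.86-fold (2.95 to 8.17) higher, and Ccl3 and Ccl4 were 1.99-fold and 1.82-fold higher. Of the 11, 4 had intervals that include 1 (Il1a, Egr2, Nlrp3, Tnfaip3), as did Egr2, Nlrp3 and Tnfaip3 in room air. The transcription factors Cebpb, at 1266 and 442.4 CPM (2.86-fold, 2.61 to 3.14), and Hif1a, 2.08-fold (1.57 to 2.75), were 2 of 7 called. Of the adaptors and kinases, 2 of 17 were called higher (Fgr and Malt1), beside the same 9.23%, and the gamma chain Fcer1g was at 4415 and 4214 CPM. In room air, 6 of 11 induced genes were called higher, beside 8.00% of all genes higher and 10.8% lower. Among them were Cxcl2 (3.17-fold, 2.71 to 3.71) and Ccl2 (1.80-fold, 1.62 to 1.99), and 0 were called lower. Ccl3, Ccl4 and Nfkbia, called higher in aneurysm, were not called in room air. Their ratios there were 1.03 (0.711 to 1.48), 0.809 (0.651 to 0.999) and 0.961 (0.770 to 1.19). Cebpb there was at 794.4 and 534.0 CPM.

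Markers of monocytes and of neutrophils moved with Clec4e in these cells. The summed level of the 8 classical monocyte markers in aneurysm cluster 19 was 2268 CPM in cells with a Clec4e UMI and 859.3 in cells without, and in room air 1137 and 840.1. The sum of the 10 macrophage markers was 10044 against 17107 CPM in aneurysm and 14543 against 17273 in room air. The 8 neutrophil markers summed to 588.7 and 222.4 CPM with aneurysm and to 703.6 and 373.0 in room air, with none of them at 0. Over the whole of cluster 19 the monocyte markers summed to 930.0 CPM in room air and 1241 with aneurysm and the neutrophil markers to 473.2 and 321.7. The part of these markers in the Clec4e differences was not tested. The cells compared differed little in depth in aneurysm, with medians of 7373 and 8000 UMIs, and more in room air, with 10190 and 7462.

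**Figure D5:**
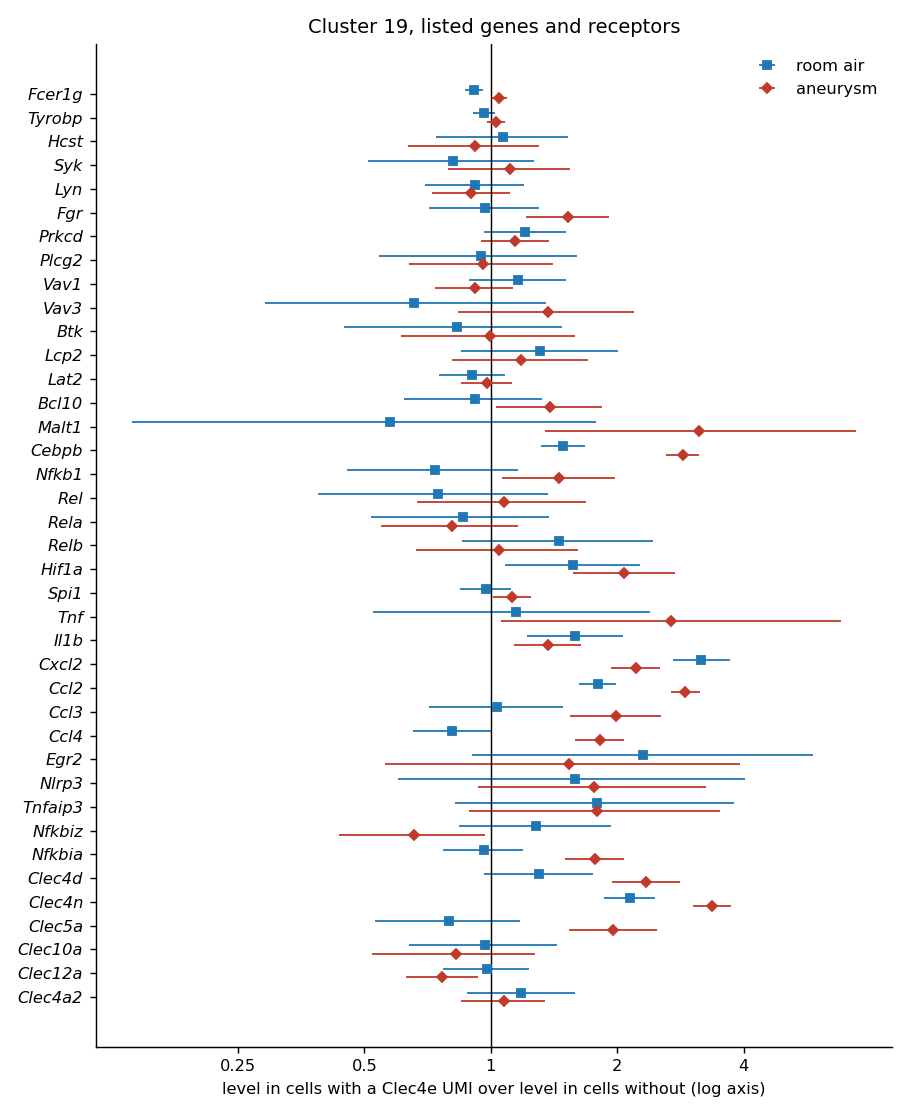
Ratio of the level in cluster 19 cells with a Clec4e UMI to the level in cells without (log axis), for named genes of the adaptor, transcription factor and induced gene lists and for 6 receptors with at least 20 UMIs in room air and in aneurysm. Bars are exact conditional binomial 95% intervals; Fcer1g and Tyrobp sat near 1 in both libraries, and Cxcl2, Ccl2 and Clec4n to the right of 1 in both.

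Signalling genes downstream of the receptors were compared over all macrophage-like cells. Fcer1g was at 4074 CPM in control, 4097 in room air and 4138 with aneurysm, and the Dap12 gene Tyrobp at 2488, 2589 and 2484. Of 17 adaptors and kinases, 6 were called higher in room air than control, with 0 lower, beside 25.6% of all genes higher and 14.3% lower. Among them the Src-family kinase Fgr went from 13.5 to 85.6 CPM (6.35-fold, 3.66 to 12.0) and the adaptor Lat2 from 64.3 to 235.5 (3.66-fold, 2.83 to 4.81). Vav1, a signalling exchange factor, was 2.40-fold higher (1.77 to 3.32). Syk stood at 68.5 and 63.3 CPM and Card9 at 8.30 and 7.78. Of 7 transcription factors 3 were called higher (Hif1a, Relb, Rel), beside the same 25.6%, with Hif1a from 31.1 to 65.8 CPM. T cell-like cells also had higher levels of both lists in room air than control. Their median log2 ratios were 1.49 and 1.45, beside 0.41 over all genes. The part of free RNA in the macrophage ratios was not tested. Between aneurysm and room air 0 of 18 adaptors and kinases and 0 of 7 transcription factors were called in macrophage-like cells, beside 3.92% of all genes higher and 6.89% lower.

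Of 13 induced cytokines and feedback genes, 8 were called higher in room air than control, with 0 lower, beside 25.6% of all genes higher and 14.3% lower. The classical monocyte markers summed to 336.7 CPM in cluster 2 of control and to 1006, 1109 and 930.0 CPM in clusters 5, 18 and 19 of room air. The neutrophil markers summed to 166.0 CPM in that control cluster and to 433.4, 830.2 and 473.2 CPM in those room air clusters, and the part of both lists in these differences was not tested. The inflammatory cytokine Il1b went from 30.1 to 131.3 CPM (4.36-fold, 3.00 to 6.58), Ccl4 from 95.4 to 290.0 (3.04-fold) and Ccl2 from 275.9 to 646.5 (2.34-fold, 2.06 to 2.67). In T cell-like cells the list also rose, with a median log2 ratio of 1.69 beside 0.41 over all genes. Il1b there went from 5.01 to 49.4 CPM, Ccl4 from 35.1 to 113.9 and Ccl2 from 10.0 to 52.7. The part of free RNA in the macrophage ratios was not tested. Between aneurysm and room air 1 of 16 was called higher in macrophage-like cells and 3 lower, beside 3.92% of all genes higher and 6.89% lower. The 1 higher was Cxcl3, with 5 UMIs in room air and 76 with aneurysm (11.2-fold, 4.58 to 35.3), and 73 of those 76 lay in cluster 19. Tnf was 2.03-fold lower in aneurysm (1.41 to 2.95), at 19.1 and 9.40 CPM, and the others lower were Il10, with 14 and 9 UMIs, and Ptgs2, with 26 and 19. The intervals of the Il10 and Ptgs2 ratios, 0.180 to 1.17 and 0.281 to 1.01, include 1. Among 5 inhibitory signalling genes, Ptpn6, the phosphatase SHP-1, was 1.81-fold higher in room air than control, Cblb was also called higher and Ptpn11 lower. That Cblb call rests on 5 control UMIs, and its interval, 0.971 to 7.78, includes 1. Between aneurysm and room air Cblb was the 1 called, 1.55-fold lower (1.01 to 2.38). Of 5 ligand-related genes, Sap130 was the 1 called in the first comparison, lower on 6 and 15 UMIs, and 0 were called in the second. The interval of that Sap130 ratio, 0.222 to 1.90, includes 1.

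Of 16 other C-type lectins tested in macrophages, 9 were called lower in room air than control, like Clec10a, 6 were within the limits and 1 was called higher (Cd69). Of all genes 14.3% were called lower and 25.6% higher. The mannose receptor Mrc1 was at 1099 CPM in control and 320.6 in room air (3.43-fold lower, 3.16 to 3.72). Mgl2, the close relative of Clec10a, was at 1092 and 248.6 CPM (4.39-fold lower, 4.03 to 4.80) and Cd209f at 754.2 and 105.2. Since their sequences are alike, reads of Clec10a and Mgl2 may have been split between them. Between aneurysm and room air 2 of 20 were called higher, beside 3.92% of all genes, both at low counts (Cd207 and Ly75, with 23 and 20 UMIs in aneurysm). Cd69 was 1.51-fold lower.

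Classical monocyte-like cells, the blood-derived precursors of many macrophages, held Mincle in every library. Clec4e was at 82.8 CPM in control (12 UMIs in 41 cells, 42.8 to 144.7), 128.0 in room air and 167.5 with aneurysm. The ratio of room air to control, 1.54 (0.845 to 3.09), had an interval that includes 1, and 1 room air cell held 33 of the 97 UMIs. Without the highest cell of each library that ratio was 1.34. The ratio of aneurysm to room air was 1.31 (1.03 to 1.67), within the limit for a call, and 1.91 without the highest cell of each library, past it. The share of cells with a Clec4e UMI was 19.5%, 34.0% and 57.5%, and after thinning to 1000 UMIs 4.88% (0.596 to 16.5), 8.49% (3.96 to 15.5) and 13.5% (8.99 to 19.1). Mincle was thus detected in control monocytes while it was absent from the UMIs of the 272 macrophage-like cells of control.

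Clec4d and Clec4n were called higher in aneurysm than room air in classical monocyte-like cells. Clec4d was at 13.8 CPM in control (2 UMIs), 62.0 in room air and 120.3 with aneurysm, 1.94-fold higher in aneurysm than in room air (1.40 to 2.73). Clec4n was at 41.4 CPM in control (6 UMIs), 163.6 in room air and 273.9 with aneurysm, a further 1.67-fold (1.37 to 2.06). They were 2 of 7 receptors called higher in aneurysm and 0 were lower, beside 9.88% of all genes higher and 10.2% lower. In room air against control 4 of 7 were called higher (Clec4e, Clec4d, Clec4n and, on 5 control UMIs and with an interval of 0.767 to 6.14, Clec5a) and 1 lower, beside 30.6% of all genes higher and 10.1% lower. The 1 lower was the inhibitory Clec4a2, at 503.9 CPM in control, 255.9 in room air and 271.4 with aneurysm (1.97-fold lower in room air). The 10 macrophage markers summed to 2174 CPM in control monocytes, 7868 in room air and 6496 with aneurysm, and their part in these differences was not tested.

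Mincle and MCL were found in the same monocytes in the aneurysm library. A Clec4d UMI was present in 71 of 111 aneurysm monocytes with a Clec4e UMI (64.0%, exact binomial 95% interval 54.3 to 72.9) and in 19 of 82 without (23.2%, 14.6 to 33.8). In room air the shares were 22.2% of 36 cells and 21.4% of 70 cells. Median depth was 6637 and 6083 UMIs in the aneurysm cells and 5814 and 6206 in the room air cells. The difference between the libraries was not tested.

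Neutrophil-like cells had the most Clec4d of all named classes. Clec4d was at 159.4 CPM in room air and 247.0 with aneurysm (1.55-fold, 1.18 to 2.05), and Clec4e at 201.5 and 156.3 (0.775, 0.590 to 1.02). Clec5a was 1.59-fold lower in aneurysm, at 104.1 and 65.5 CPM. These were 1 of 7 receptors called higher and 1 lower, beside 9.63% of all genes higher and 12.2% lower. The 12 control cells held 3 Clec4e and 6 Clec4d UMIs. All 177 cells of the cluster also held UMIs of C1q, a macrophage product, and the macrophage markers summed to 12589 to 14823 CPM by library. A split by C1q, chosen after the values were seen, pooled all libraries. The 26 cells with 5 or fewer C1q UMIs had Clec4d at 426.5 CPM (314.4 to 565.4) and Clec4e at 239.9 (158.1 to 349.0). The other 151 had 193.1 and 160.0. In aneurysm Clec4d was at 525.5 CPM in the 13 such cells and 221.1 in the rest, and Clec4e at 188.6 and 153.2. In room air the 8 such cells held Clec4d at 216.9 CPM on 5 UMIs and Clec4e at 520.7 on 12, beside 156.4 and 184.4 in the rest. Clec10a, Clec4a2 and Clec4n in this cluster cannot be assigned to neutrophils, since its cells hold macrophage RNA. Whether neutrophils or classical monocytes had the higher Clec4e level changed with the setting, and 7 of 10 alternatives put classical monocyte-like cells first.

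Nonclassical monocyte-like cells, which patrol the vessel wall, held Clec4e at 139.6 CPM in room air and 193.9 with aneurysm, on 14 and 32 UMIs, with overlapping intervals. Their Clec12a was at 249.2 and 121.2 CPM, a 2.06-fold lower level in aneurysm (1.10 to 3.91). Clec12a was the 1 of 4 receptors called lower and Clec4a2, on 6 and 16 UMIs, the 1 called higher, beside 12.6% of all genes higher and 11.9% lower. Clec4d was at 19.9 and 30.3 CPM, on 2 and 5 UMIs.

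In cDC2-like cells Clec4e, Clec4d and Clec4n were called higher in aneurysm than room air. Clec4e was at 12.6 CPM in room air and 45.6 with aneurysm (3.63-fold, 1.88 to 7.85), and 1 aneurysm cell held 31 of the 83 UMIs. Without the highest cell of each library the levels were 10.1 and 28.7 CPM. Clec4d was at 8.80 and 25.9 CPM on 7 and 47 UMIs, and Clec4n at 126.9 and 240.9 CPM (1.90-fold, 1.53 to 2.38). T cell-like cells of room air and aneurysm had Clec4e at 7.54 and 5.12 CPM, Clec4d at 14.2 and 5.12 and Clec4n at 59.4 and 30.2. The room air Clec4d level of cDC2-like cells thus lay below that free RNA background and their room air Clec4e level near it. Clec5a was at 31.4 and 21.4 CPM, on 25 and 39 UMIs, with a ratio of 0.683 whose interval, 0.403 to 1.18, includes 1. So 3 of 7 were called higher and 0 lower, beside 10.0% of all genes higher and 9.66% lower. In these cells the macrophage markers summed to 2938 CPM in room air and 1982 with aneurysm, the classical monocyte markers to 1697 and 2273 and the neutrophil markers to 522.8 and 356.9. Their part in the differences was not tested. Clec10a, a receptor typical of cDC2, was at 452.9 CPM in control, 399.7 in room air and 388.3 with aneurysm, with overlapping intervals.

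Clec9a marked cDC1-like cells in every library. It was at 145.2 CPM in control (20 UMIs in 26 cells, 88.7 to 224.3), 80.7 in room air (53.6 to 116.6) and 88.9 with aneurysm (67.0 to 115.7). Room air was 1.80-fold below control, with a ratio of 0.555 whose interval, 0.302 to 1.04, includes 1. It was the 1 of 3 receptors past the fold limit there, beside 29.3% of all genes higher and 8.16% lower. Between aneurysm and room air 1 of 5 was called higher (Clec10a, 1.56-fold, 0.830 to 3.12) and 1 lower (Clec4a2, 2.02-fold), beside 14.0% and 9.13% of all genes. That Clec4a2 level was 49.0 and 24.3 CPM, beside 32.7 and 9.11 in T cell-like cells, and is not read as a difference. The T cell-like level of Clec9a was 0, 0 and 0.569 CPM. The pDC-like cells, 30 in all, held 11 Clec9a UMIs in room air and aneurysm together, at 55.1 and 58.8 CPM. They also had the highest Clec12a level of the named classes, 382.5 CPM in the 21 aneurysm cells. In mature dendritic cells of room air and aneurysm Clec4e was at 0 and 7.18 CPM and Clec10a at 51.2 and 14.4 CPM, on 14 and 8 UMIs. The 3 receptors tested in them (Clec10a, Clec4n, Clec12a) were all past the limit for lower, beside 10.3% of all genes higher and 14.2% lower. T cell-like cells of the same libraries had Clec10a at 23.4 and 12.53 CPM. Clec4n was at 54.8 and 32.3 CPM in the mature dendritic cells and at 59.4 and 30.2 in T cell-like cells, and Clec12a at 62.1 and 41.3 beside 37.7 and 15.4. These levels lay near that free RNA background, which was also lower in aneurysm, so no difference between the libraries is read from them.

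Levels of the receptors were correlated across the aortic cells, over 45 combinations of cluster and library, as the Pearson correlation of log2(CPM + 1). The highest of the 28 pairs was Clec12a with Clec4a2 (0.82), then Clec4d with Clec4n (0.77), Clec4n with Clec5a (0.74), Clec12a with Clec5a (0.73) and Clec4n with Clec12a (0.72). Clec4e gave 0.69 with Clec4n, 0.67 with Clec4d, 0.65 with Clec5a, 0.61 with Clec12a and 0.60 with Clec4a2. With Clec9a it gave 0.11. The points share libraries, depth and free RNA, so these values only describe the libraries. Among 9906 candidate genes the patterns most like Clec4e were Sirpb1c (0.86), Mefv (0.85) and Msrb1 (0.85), and those most like Clec4d were Cstb, Ctsb and Lilr4b (0.82 to 0.81). Clec4n was nearest to Trem2 (0.89), Tgfbi and Lgals3. Clec5a was nearest to Hmox1, Hebp1 and Gab2, and Clec10a to Cd209d, Wfdc17 and Dab2. Clec12a was nearest to Mpeg1 (0.94), Alox5ap and Aif1, Clec4a2 to Trf, Pid1 and Ccl9, and Clec9a to Sept3, Xcr1 and Ppt1. The receptors and listed genes were left out when the cells were clustered, while most of these neighbours could take part.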

How the data were processed

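The files deposited by the authors hold counts, whole numbers of UMIs per gene and called barcode, with no normalization. Libraries were made with 10x Genomics 3′ v2 chemistry, per the labels' protocols, and the submitters' processing notes name Cell Ranger, STAR and mm10. Tool versions are not given in the sources used here. Barcodes with at least 200 genes and at most 10% mitochondrial UMIs were kept. Scrublet's own threshold found 3 doublets among 5465 cells, so instead the highest scores, up to 0.8% per 1000 barcodes, were removed (5, 27 and 64 cells). The labels state 738, 1736 and 2685 cells, the files list 782, 1851 and 2842 barcodes, and 778, 1848 and 2839 passed the filters. The libraries were clustered together in scanpy 1.11.5 (2000 variable genes without Apoe, the receptors and listed genes, 30 components, 15 neighbours, Leiden resolution 1), with no deposited annotation used. A cluster took a class name with at least 3 markers in 10% of its cells and a marker among its 10 leading genes; clusters 1, 3 and 6 stayed unnamed, with 24, 46 and 61 control, 38, 38 and 13 room air and 45, 26 and 50 aneurysm cells. The UMIs of each class in a library were added up and divided by their total (CPM), with exact Poisson, binomial and conditional binomial 95% intervals (scipy 1.17.1); the ratio and its interval were checked on simulated counts. Classes with at least 25 cells in both libraries were compared, and a level of 0 against 3 counts over the group.

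The receptors, gene lists and tests were chosen with earlier results of these data known. The text names all receptors, per list and comparison up to 4 called genes with the most UMIs, and for each receptor the 3 genes of most like pattern. Further named genes (Fcer1g, Tyrobp, Syk, Card9, Cebpb, and the genes compared between cells with and without Clec4e) were chosen after their values were seen. Of 90 listed genes 89 were matched. Of these, 1 gene is counted but not reported here by name. Lists gave no set test. Thinning to 1000 UMIs per cell, other totals, filters, resolutions and class rules were tried as alternatives. The labels also count cells of a smoke group, which was not analysed here. Gene positions come from GENCODE on GRCm38.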

Additional observations from a re-analysis of the deposited data

Results flagged for a closer look

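Clec10a was 1.27-fold higher in aneurysm than room air in cluster 5 (1.12 to 1.45) and its ratio was 0.630 in cluster 19 (0.486 to 0.816), so the sole libraries of each group moved in opposite directions in 2 macrophage clusters. The difference between the clusters was not tested. In cluster 19 the ratio was 0.989 without the highest cell of each library, and in cluster 5 it was 1.29.

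Clec5a had a ratio of aneurysm to room air of 1.35 in cluster 19 (1.10 to 1.66) and of 0.629 in neutrophil-like cells (0.420 to 0.946). The difference between these cells was also not tested. With 1 library a group, both pairs compare libraries only.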

How the results depend on the processing

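The ratio of Clec4e in aneurysm over room air macrophages, 2.27, stayed between 2.12 and 2.72 under most alternatives. It was 1.73 with each cell classed by its own markers, 3.09 as a mean over cells and 4.00 with cells thinned to 1000 UMIs, and it turned to 0.814 outside cluster 19. The ratio of room air to the control floor, 11.8, was 2.73 after thinning, 9.36 with the T cell-like level subtracted and 6.41 outside cluster 19, and 10.6 to 39.2 otherwise. It could not be computed outside cluster 2, which left too few control cells. The number of receptors called between aneurysm and room air, 1, was 0 outside cluster 19. It was 2, with Clec4d added, without doublet removal, outside cluster 5, as a mean over cells, with the T cell-like level subtracted, with median-of-ratios scaling, or without mitochondrial and ribosomal genes. It was 3 after thinning (Clec4n also added) or with the receptors among the clustering genes (Clec10a also added). Between room air and control 4 or 5 were called throughout. After thinning Clec4e was not among them. The class of highest level, for 8 receptors, held for 4 with cells classed by their own markers and for 6 to 8 otherwise. Of 154 recomputed ratios of the other receptors, 135 stayed within the main interval and 19 did not. A reversal was counted only for ratios called in the main setting, and 0 of those reversed. These were Clec4d, Clec4n and Clec10a in room air over control. A change of direction in the other ratios was not counted. Leaving out the highest cell of each library was chosen after seeing the data and gave 2.37 and 10.6 for Clec4e. Control's shallow depth and 272 macrophages limit its levels near 0. No paired analysis was possible because each group has 1 library.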

Other observations

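Single cells carried some levels outside the comparisons above. In ILC2-like cells of room air, a lymphoid class, 1 of 26 cells held 51 of the 53 Clec4n UMIs, so that the class level was 633.9 CPM with it and 30.2 without. That cell had 17295 UMIs in all, with 5 of Gata3, 7 of Calca and 6 of C1qa.

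Cluster 6, led by Retnla, Lyz1, Ear2 and Fn1 and left without a class name, held 61 control, 13 room air and 50 aneurysm cells. Macrophage was its best-scoring class, but no macrophage marker was among its 10 leading genes. Clec4e there was at 5.59 CPM in control, 11.9 in room air and 37.9 with aneurysm, and Clec4a2 at 430.4, 476.7 and 452.5 CPM. The control and room air Clec4e levels rest on very few UMIs, so no order of libraries is read from them. The same neutrophil-like cells were split by C1q above, with all libraries pooled. Those with 5 or fewer C1q UMIs had S100a8 at 31140 CPM, beside 7145 in the others. Of the 177 cells, 35 lay near that limit, with 3 to 10 C1q UMIs.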
